A study of Mus musculus with 2 samples.

Results

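The heat shock proteins and J-domain co-chaperones were taken as every probe set annotated to exactly 1 gene symbol beginning with Hspa, Hspb, Hspd, Hspe, Hsph, Hsp90, Dnaja, Dnajb or Dnajc, together with Cryab, Hsf1, Hsf2 and Bag1 to Bag6. This gave 188 of the 34945 probe sets that carry 1 symbol, and 80 of 18193 genes. No probe set with 1 symbol was found for Hsf1, the main heat shock transcription factor, or for Hsp90ab1, the constitutive cytosolic Hsp90, and both were not analysed here. Hspbp1, Hspbap1 and Hspb11 share the letters Hspb without being small heat shock proteins, and were kept in the counts but out of that group.

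Total RNA of mouse skeletal muscle was hybridised to 2 Affymetrix Mouse Genome 430 2 arrays, 1 for wild-type mice and 1 for Jhdm2a null mice. Each array carried RNA combined from 3 animals, all of them males aged 3 months, from 129 embryonic stem cells backcrossed for 4 generations onto C57BL/6. Jhdm2a, now named Kdm3a, encodes a histone demethylase that acts on lysine 9 of histone H3. The muscle taken, and how far strain background differed between the pools, are not given in the sources used here. With 1 pooled array per genotype there is no replicate check and no p-value, and "higher" or "lower" describes these arrays, whose number limits the precision.

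Chaperones of the Hsp70 family bind exposed hydrophobic stretches of other proteins in cycles of ATP hydrolysis. J-domain proteins deliver the client and trigger the hydrolysis, and nucleotide exchange factors such as the Hsp110 proteins and several Bag proteins release it. Small heat shock proteins hold unfolding proteins without using ATP, and in muscle several of them sit at the Z-disc, where filamin and desmin are under mechanical strain. Many cytosolic members are induced by the heat shock factor Hsf1, while those of the endoplasmic reticulum answer to a separate response to unfolded protein in that compartment.

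Kdm3a itself read 406 on the wild-type-labelled array against 488 for the null label (MAS5 signal), so the label was not borne out by a lower transcript, and its probe set may lie outside the disrupted part. The fibre list showed the labelled tissue, with all 15 markers measured, among them actin Acta1, creatine kinase Ckm and myosin Myh4. A probe set was called measured when its signal exceeded 182, the 60th percentile of all non-control signals, on both arrays. The value of a gene is the mean log2 ratio, null-labelled over wild-type-labelled, of its measured probe sets. Among 9696 measured genes the median log2 ratio was 0.04, and the probe sets of a gene differed with a pooled SD of 0.29. That SD is a spread between probe sets, need not be technical error alone, and covers no variation between mice. For the spiked controls of the hybridisation, 18 probe sets, the mean was -0.02 ± 0.09 (SD).

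The small heat shock proteins and a list of heat-inducible members read higher on the null-labelled array, each with a median log2 ratio of 0.39. The cytosolic Hsp70 and Hsp90 members had a median of 0.23, near the 0.18 of the fibre markers, and Hspa14 among them was lower. Medians of the endoplasmic reticulum and mitochondrial chaperones lay near 0. The inducible Hsp70 genes Hspa1b and Hspa1a stood farthest out, at 3.76-fold and 3.26-fold. Of the 80 genes, 70 were measured, 1 passed the floor in wild-type RNA alone and 9 passed it on neither array. Among the measured members 6 were at least 1.5-fold higher with all their probe sets of 1 sign, or 8.57%, where 3.35% of all measured genes were. A single member, 1.43%, was at least 1.5-fold lower, against 6.27% of all measured genes. At 2-fold, 2 members (2.86%) were higher against 0.371% of all measured genes, and 0 were lower against 2.36%. The log2 ratio was above 0 in 53 of 70 members (75.7%), against 55.7% of all measured genes, and its median was 0.18 against 0.04. The 53 became 50 with the median of all genes set to 0 or after loess, where Bag6, Dnajb12 and Hspe1 turned below 0, and all genes then had 49.4% and 49.3%. Of the 35 members with several measured probe sets, 20 were higher in every one, where 35.4% of the 3719 genes with several were. Another 4 members were lower in every one, but the matching share of all genes was not computed, so that count has no background. Without Hspa1a and Hspa1b, which share nearly all their sequence, the median of the other 68 members was 0.17. With no floor on the signal 54 of all 80 members were above 0, against 51.2% of 18193 genes.

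Markers of other cells differed between these pools. Adipocyte markers were lower on the null-labelled array in 9 of the 9 measured genes, and the signal of their probe sets summed to 119462 in wild-type-labelled against 25468 in null-labelled RNA. The sum over hepatocyte markers was 19425 against 1511, with 1 of 13 measured on both arrays. Neutrophil markers summed to 1219 against 8747, with 2 of 9 measured on both, and erythroid markers to 14449 against 21660, with 4 of 5 measured. Most of the erythroid sum came from Bpgm and Fech. Alas2 read 212 against 346 and the measured probe set of Slc4a1 310 against 941. The globin Hba-a1 was under the floor and went the other way, at 17.6 against 12.4. No defining marker of these lists was at a signal of 0, though S100a8 and Lep, on the arrays where they were dim, read 92.5 and 13.5. Fibre markers summed to 353240 against 392114, with 13 of 15 above 0 and a median log2 ratio of 0.18, which became 0.06 after loess and 0.07 after quantile normalization, with 10 of 15 above 0 in each. The part of these markers in the chaperone values was not tested. In pooled tissue RNA, more cells of a type and more RNA per cell cannot be told apart.

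**Figure D1:**
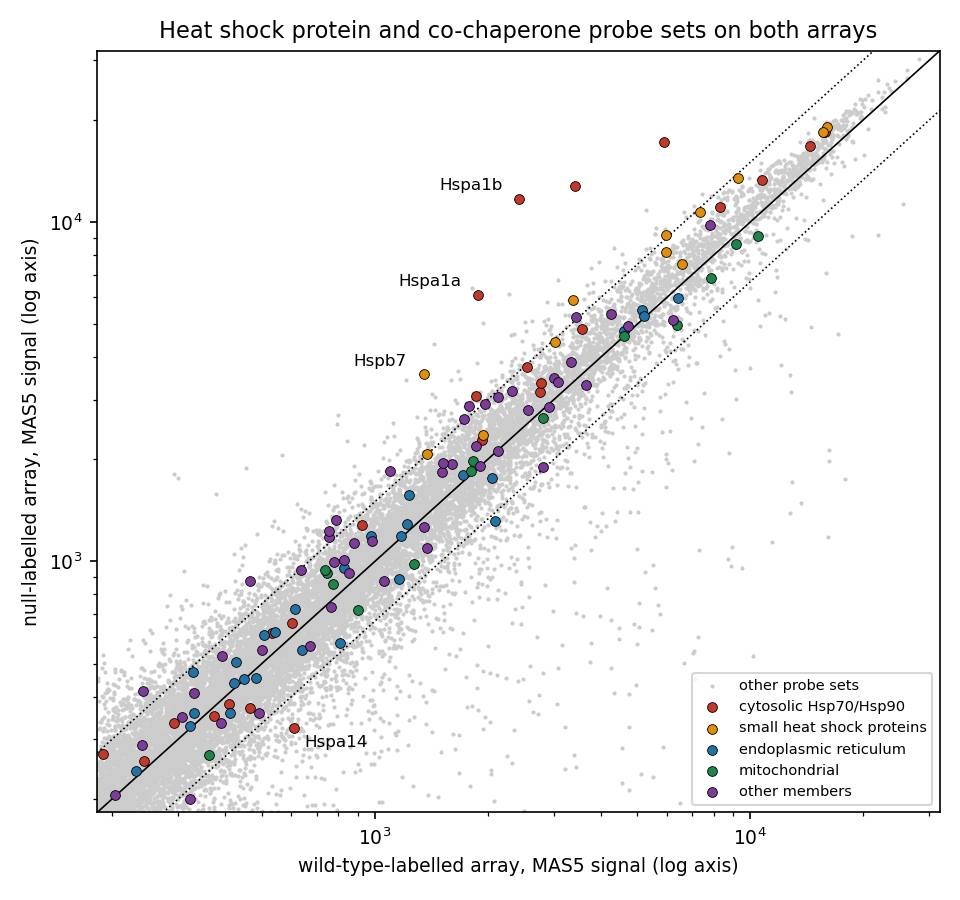
MAS5 signal of each measured probe set, wild-type-labelled on the x axis and null-labelled on the y axis, both log axes. Coloured points are the 126 member probe sets by compartment or role, grey points all other probe sets, the solid line marks equal signal and the dotted lines 1.5-fold. The 3 Hspa1b probe sets and the 1 of Hspa1a lie above the upper dotted line by a wide margin, while most other members follow the diagonal.

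Hspa1b and Hspa1a encode the stress-inducible cytosolic Hsp70, which is low in unstressed cells of most tissues. In wild-type-labelled RNA 1 probe set of Hspa1b read 2422, and in null-labelled RNA 11720.2. In the same order, which is kept below, the others read 3408 against 12765 and 5908 against 17274. The 3 ratios, from 1.55 to 2.27 on the log2 scale, thus all pointed the same way. Their mean was 1.91 ± 0.36 (SD of 3 probe sets), rank 3 from the top of 9696 measured genes. The 1 probe set of Hspa1a read 1878 against 6116, a log2 ratio of 1.70 and rank 5. The coding sequences of this pair are almost the same, so their probe sets may share signal and do not count as independent. Over 11 other ways of processing the values, Hspa1b ranged from 1.55 to 1.91 and Hspa1a from 1.61 to 1.70.

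The start regions of both genes are shown because they carry the largest values. They come from RefSeq on GRCm38.p6, 250 bases before to 50 bases after the annotated start, both on the minus strand, at chr17:34959189-34959488 for Hspa1b and chr17:34972107-34972406 for Hspa1a. Capitals mark a pair of inverted GAA units, the core to which heat shock factors bind.
Hspa1b: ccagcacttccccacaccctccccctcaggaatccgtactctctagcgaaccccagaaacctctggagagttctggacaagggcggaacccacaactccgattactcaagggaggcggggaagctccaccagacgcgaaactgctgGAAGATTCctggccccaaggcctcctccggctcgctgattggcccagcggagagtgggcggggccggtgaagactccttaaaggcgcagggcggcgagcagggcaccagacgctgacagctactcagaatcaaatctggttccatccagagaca
Hspa1a: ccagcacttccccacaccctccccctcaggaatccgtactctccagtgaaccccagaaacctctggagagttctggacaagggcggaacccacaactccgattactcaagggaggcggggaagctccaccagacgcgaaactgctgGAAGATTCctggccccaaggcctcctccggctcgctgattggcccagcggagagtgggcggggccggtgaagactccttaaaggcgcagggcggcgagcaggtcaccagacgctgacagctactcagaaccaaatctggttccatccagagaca
The windows were identical at 296 of 300 bases (98.7%), and each held 1 such pair, its first base 104 bases before the start. Hspa1l, the next gene of this cluster and another Hsp70 that is expressed mainly in testis, read 534 against 617, at 0.21, and did not share the difference.

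The constitutive cytosolic Hsp70, Hspa8, differed little but evenly. Its measured probe sets read 14462 against 16783, 10752 against 13314 and 15871 against 18483, a mean log2 ratio of 0.25 ± 0.05 (SD of 3 probe sets). Hspa4 and Hsph1 are Hsp110 proteins, which exchange nucleotide on Hsp70. Hspa4 had 0.33 ± 0.12 (SD of 3 probe sets), from 1931 against 2278, 924 against 1280.3 and 2765 against 3369. Hsph1 read 1859 against 3084 and 3569 against 4838, and its 1.499-fold difference (0.58 ± 0.21, SD of 2 probe sets) fell just under the threshold. Hspa4l, another Hsp110 protein, had measured probe sets of both signs, -0.11, -0.09 and 0.52.

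Hspa14 was the 1 member past 1.5-fold in the other direction. It encodes a Hsp70 that works at the ribosome with the J protein Dnajc2. Its probe sets read 610 against 323 and 464 against 370, a mean of -0.62 ± 0.42 (SD of 2 probe sets), 1.54-fold lower. Both pointed down but differed in size, and the gene was not measured with the floor at the 75th percentile. It was not called with 50 added to each signal (-0.56) or with no floor (-0.41). Its partner Dnajc2 read 780 against 996 and 765 against 737, so its probe sets disagreed in sign. Hspa2, an Hsp70 known from the testis, and the atypical Hspa12a and Hspa12b had 0.12, 0.08 and 0.20, each from 1 probe set.

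Hsp90aa1, the stress-inducible cytosolic Hsp90, was higher in each of its 3 measured probe sets. They read 2541 against 3740, 2751 against 3162 and 8317 against 11085, a mean log2 ratio of 0.39 ± 0.18 (SD). Over the 12 measured cytosolic Hsp70 and Hsp90 members 11 were above 0, under all 3 other scalings too, and the median was 0.23. The count was 10 with the brightest probe set of each gene, and also with the median of its probe sets.

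All 7 measured small heat shock proteins were higher on the null-labelled array, under each of the 3 other scalings as well, with a median log2 ratio of 0.39 and values from 0.24 to 0.88. Hspb7, a small heat shock protein of heart and skeletal muscle, was the highest at 1.85-fold. Its probe sets read 1351 against 3562, 3384 against 5909 and 5955 against 8145. They agreed in sign but not in size, at 1.40, 0.80 and 0.45, so the mean was 0.88 ± 0.48 (SD of 3 probe sets) and the probe set with the brightest signal alone would leave it under 1.5-fold.

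Hspb1, known as Hsp27, guards actin filaments. It read 7336 against 10729 and 5980 against 9186, a mean of 0.58 ± 0.05 (SD of 2 probe sets) or 1.499-fold, again just under the threshold. Cryab, the alpha B crystallin that stabilises desmin, and Hspb2, a muscle form that assembles with Hspb3, are neighbouring genes. Cryab read 9275 against 13450 and 16073 against 19113, and Hspb2 read 3013 against 4428, for log2 ratios of 0.39 ± 0.20 (SD of 2 probe sets) and 0.56. Hspb6, a phosphorylated relative that acts in smooth muscle relaxation, read 15604 against 18400, and Hspb3 read 1943 against 2367. Those values, 0.24 and 0.28, were the lowest of the group, yet both lay above the median of all genes.

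Hspb8 and Bag3 form the complex that removes damaged filamin from the Z-disc by autophagy. Hspb8 read 6597 against 7515 and 1382 against 2076, a mean of 0.39 ± 0.28 (SD of 2 probe sets), while its dim probe set, under the floor on 1 array, read 136 against 391.8. Bag3 read 4272 against 5366, a log2 ratio of 0.33. The 3 members that share only the letters, Hspbp1, Hspb11 and Hspbap1, had -0.28, -0.26 and 0.26. Hspb9, a testis gene, was not above the floor.

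J-domain proteins of the Dnaja class in the cytosol were higher in every measured probe set. Dnaja4 read 2124 against 3054, 465 against 876 and 1788 against 2867, a mean log2 ratio of 0.71 ± 0.20 (SD of 3 probe sets) or 1.63-fold, though its brightest probe set alone gave 0.52 and was under 1.5-fold. Dnaja2 read 1100.0 against 1850.1, 1731 against 2634 and 7811 against 9801, at 0.56 ± 0.21 (SD of 3 probe sets). Dnaja1, a farnesylated member of the class, read 3000.4 against 3479.9, 3338 against 3864 and 2325 against 3176, at 0.29 ± 0.14 (SD of 3 probe sets). The difference thus ran in 1 direction through the cytosolic Dnaja proteins but was smallest in Dnaja1. Dnaja3, which works in the mitochondrial matrix, had probe sets of both signs, 745 against 928 and 2811 against 2647.

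Of the 13 Dnajb genes 9 were measured and 8 of those were above 0, or 7 when the median of all genes was set to 0 or loess was used, because Dnajb12 then turned below 0. Dnajb4, a partner of Hsp70 in muscle whose loss causes a human myopathy, read 789 against 1327 and 3443 against 5243. Its mean of 0.68 ± 0.10 (SD of 2 probe sets) is 1.60-fold, and the floor at the 50th percentile, which brings in a dim probe set of opposite sign, lowered it to 0.42. Dnajb1, the classical inducible Hsp40, read 1507 against 1837 and 635 against 944, at 0.43 ± 0.20 (SD of 2 probe sets). Dnajb5, a close relative, read 754 against 1231, 1610.2 against 1941 and 4719.9 against 4942, which is 0.35 ± 0.33 (SD of 3 probe sets that differ widely). Dnajb6, which protects the Z-disc and is mutated in a limb-girdle dystrophy, had probe sets in both directions, 391.6 against 527, 2916 against 2852 and 2804 against 1899. Dnajb2 had 0.13. Dnajb3, Dnajb7 and Dnajb13 were not above the floor, and Dnajb8 was near it on both arrays at 194 against 182.

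Short stretches around inverted pairs of GAA units are shown for members with a log2 ratio above 0.5, again from the RefSeq windows on GRCm38.p6 and with the pair in capitals. The windows, or those of several that hold the pair, lie at chr9:54699309-54699608 (Dnaja4, plus strand), chr3:152193796-152194095 (Dnajb4, minus strand), chr5:135887669-135887968 (Hspb1, plus strand), chr12:4082324-4082623 (Dnajc27, plus strand) and chr5:149636266-149636565 (Hsph1, minus strand). Dnaja4 and Hspb1 each held 2 such pairs.
Dnaja4: aacctccgcGAACGTTCtgggcctat
Dnaja4: ctcctggcgGAACCTTCcgccggcgc
Dnajb4: cgttcgctgTTCTAGAAagtacagag
Hspb1: tcaacaagaGAAGTTTCcagatgggg
Hspb1: atgggggcaGAACCTTCctggccccg
Dnajc27: cccatcggtGAAGATTCcaggaaaaa
Hsph1: gtagaatctTTCTCGAAggctcgaga
Counted from the start, the first bases of these pairs lay 90 and 52 bases before it in Dnaja4, 14 in Dnajb4, 117 and 97 in Hspb1, 213 in Dnajc27 and 54 in Hsph1. In Hsph1 a further element of 3 units began at base 16 of the transcript. The windows of Hspb7, Bag2 and Dnaja2, whose log2 ratios were also above 0.5, did not contain these letters, and Hspb2 was not matched to a window.

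The Dnajc genes, the most varied class of J proteins, lay on both sides of 0. Of 22 measured, 14 were above 0 and 8 below, and the median of 0.13 equalled that of the 9 measured Dnajb genes when rounded. Past 1.5-fold there were 0, where 3.35% of all measured genes were higher and 6.27% lower. At those shares a count of 0 in a group of this size says little. Dnajc27, which joins a small GTPase to a J domain, was highest at 0.57 ± 0.30 (SD of 2 probe sets), from 242 against 416 and 1521 against 1951. Dnajc17, linked to splicing, was lowest at -0.46, from 490.2 against 357. Dnajc9, a histone chaperone, had 0.37, and Dnajc13, an endosomal protein, 0.30. Dnajc21, which acts in ribosome assembly, disagreed between probe sets at 2131 against 2111 and 1968 against 2909. Dnajc8 of the spliceosome read 1856 against 2195 and 3081 against 3371, at 0.19 ± 0.08 (SD of 2 probe sets), and Dnajc12, a partner of aromatic amino acid hydroxylases, had 0.23. Dnajc7, which links Hsp70 to Hsp90, read 3660.4 against 3316, at -0.14. Dnajc5, the cysteine string protein of secretory vesicles, had 5 measured probe sets of mixed sign and a mean of -0.03 ± 0.20 (SD). The neuronal auxilin Dnajc6 and Dnajc22, Dnajc24, Dnajc5b and Dnajc5g were not above the floor.

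**Figure D2:**
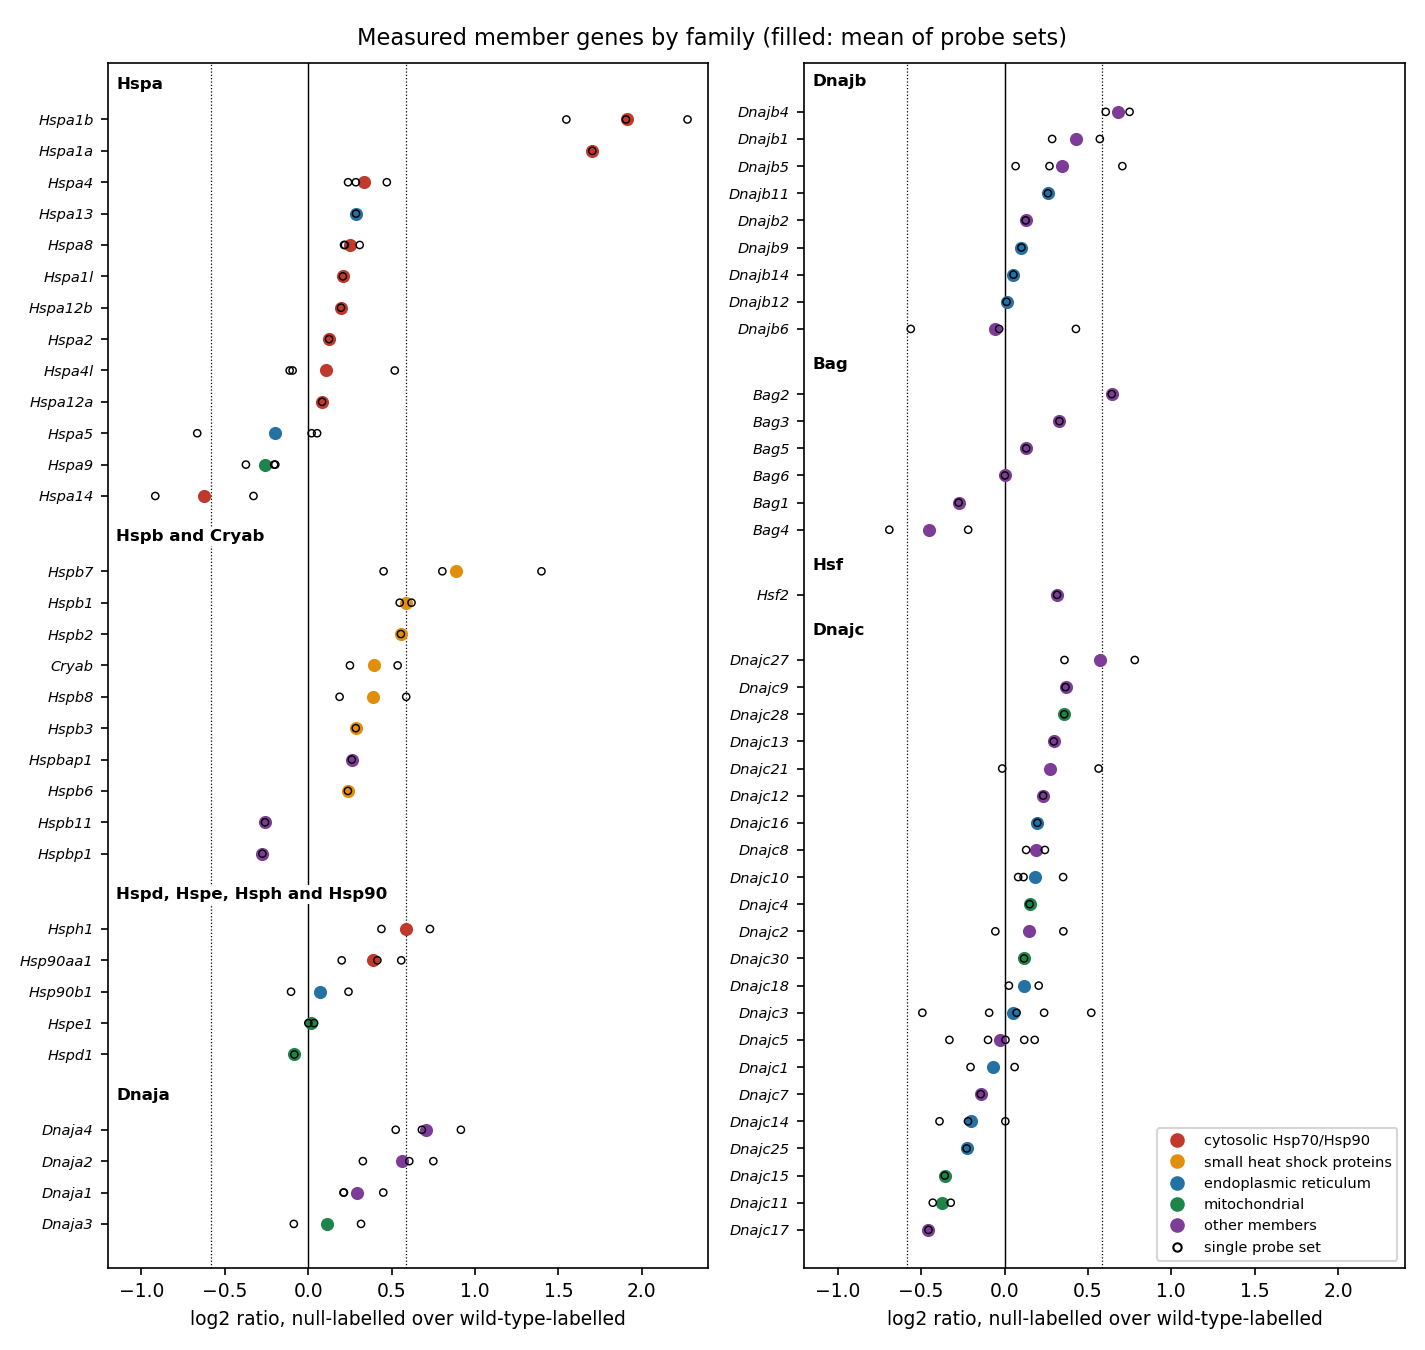
Log2 ratio of signal, null-labelled over wild-type-labelled, for the 70 measured member genes, by family. Filled points are gene means coloured by compartment or role, open circles the single probe sets, the solid line marks 0 and the dotted lines 1.5-fold. Hspa1b (1.91) and Hspa1a (1.70) stand apart, the small heat shock proteins all lie right of 0, and the Dnajc genes spread on both sides from -0.46 to 0.57.

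The 14 endoplasmic reticulum members were all measured and centred on the median of all genes. Their median log2 ratio was 0.06, with 10 above 0 (9 under the scalings that turned Dnajb12). Past 1.5-fold there were 0, where 3.35% of all measured genes were higher and 6.27% lower. Hspa5, or BiP, is the Hsp70 of this compartment and the usual readout of its stress response. Its probe sets read 5200.2 against 5273, 4605 against 4777 and 2091 against 1318, so the pair with the brightest signal differed by 0.02 and 0.05 and the third by -0.67. Hsp90b1, or Grp94, read 6438 against 5994 and 613 against 725, again with opposite signs.

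J proteins of the endoplasmic reticulum ranged more widely around 0. Dnajb9 read 5148 against 5522, at 0.10, and Dnajb11 read 508 against 608, at 0.26. Dnajc3, also known as p58IPK, had 5 measured probe sets from -0.49 to 0.52 and a mean of 0.05 ± 0.38 (SD). Dnajc10, a disulfide reductase, had 0.18 ± 0.15 (SD of 3 probe sets). Dnajb12 and Dnajb14, which sit in the membrane, had 0.01 and 0.05, and Dnajc16 and Dnajc18 had 0.20 and 0.12. Dnajc1 and Dnajc14 had probe sets of both signs and means of -0.07 and -0.20. The lowest value was that of Dnajc25 at -0.23 and the highest that of Hspa13 at 0.29.

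The Hspa5 window is printed as the contrast to those of Hspa1b and Hspa1a. It lies on the plus strand of GRCm38.p6 at chr2:34771840-34772139, and capitals mark the stress element of the endoplasmic reticulum, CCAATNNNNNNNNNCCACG.
Hspa5: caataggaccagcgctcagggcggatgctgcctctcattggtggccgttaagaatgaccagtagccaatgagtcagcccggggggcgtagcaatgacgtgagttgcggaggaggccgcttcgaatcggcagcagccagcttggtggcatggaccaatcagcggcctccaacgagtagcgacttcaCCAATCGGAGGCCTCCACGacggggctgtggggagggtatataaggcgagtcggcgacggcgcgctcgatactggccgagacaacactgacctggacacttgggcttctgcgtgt
This element was found in 3 members, Hspa5, Hsp90b1 and Dnajc3, and in 0.137% of all 27025 genes in the RefSeq promoter table. Their log2 ratios were -0.20, 0.07 and 0.05.

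Mitochondrial members divided around 0, with 5 of 9 above it and a median of 0.02. The median was below 0 after loess (-0.06) and with the median of all genes set to 0 (-0.03), and also with the brightest probe set of each gene (-0.08). Hspd1 and Hspe1, the Hsp60 and Hsp10 that form the folding chamber of the matrix, read 9145 against 8631 for Hspd1 and 1799 against 1844 and 4607 against 4608 for Hspe1. Their log2 ratios were -0.08 and 0.02, the second turning below 0 under the same pair of scalings. Hspa9, or mortalin, which pulls proteins through the inner membrane, was lower in each measured probe set at -0.26 ± 0.10 (SD of 3 probe sets), from 7871 against 6864, 10495 against 9107 and 1276 against 985. Dnajc15 of the same import motor read 6398 against 4989.6, at -0.36. Dnajc11, a protein of the cristae junctions, had -0.38 ± 0.08 (SD of 2 probe sets). Dnajc4 and Dnajc30 had 0.15 and 0.12, and the highest mitochondrial value was 0.36, in Dnajc28.

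Hspd1 and Hspe1 are neighbours that share a start region, so that 285 of the 300 bases of their windows overlap. The window of Hspe1 is given because it holds the longest run of exact heat shock units among the members. It lies on the plus strand of GRCm38.p6 at chr1:55087898-55088197, with that run in capitals.
Hspe1: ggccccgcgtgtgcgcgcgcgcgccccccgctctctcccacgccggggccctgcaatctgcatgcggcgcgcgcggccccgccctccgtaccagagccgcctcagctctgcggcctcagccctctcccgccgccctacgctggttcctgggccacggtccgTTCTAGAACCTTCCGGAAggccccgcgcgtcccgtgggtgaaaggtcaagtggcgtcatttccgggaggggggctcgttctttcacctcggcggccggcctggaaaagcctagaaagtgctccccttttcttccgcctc
The gene pair with the longest exact run had log2 ratios near 0. Hspa1b and Hspa1a, with a single exact pair of units in their windows, had the highest of the members. Units that depart from the exact letters were not searched for, so these matches do not rank the elements by completeness. Their part in the values was not tested.

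Motifs were searched on both strands in the RefSeq windows of 65 members. A 3-unit heat shock element, GAANNTTCNNGAA or TTCNNGAANNTTC, was present in 4 members (6.15%) and in 0.662% of all genes. These were Hsph1 at 0.58, Hspe1 at 0.02, Dnajb6 at -0.06 and Hspd1 at -0.08. Over the 48 measured genes with the 3-unit form the median was 0.03. The 2-unit form, GAANNTTC or TTCNNGAA, which every 3-unit match contains, was present in 17 members (26.2%) and in 17.0% of all genes. Of the 16 measured members with it, 14 were above 0, 4 were at least 1.5-fold higher and the median was 0.36. Among all measured genes with it, 57.1% were above 0 and 3.45% were at least 1.5-fold higher. The near-identical windows of Hspa1a and Hspa1b and the overlapping ones of Hspd1 and Hspe1 count separately here, and Hspa1a and Hspa1b make up 2 of the 4. With Hspa1a and Hspd1 left out, 13 of 14 were above 0, 3 were at least 1.5-fold higher and the median was 0.36. Of the 41 measured members without it, 30 were above 0, 2 were at least 1.5-fold higher and the median was 0.12. Among all measured genes without it, 3.31% were at least 1.5-fold higher. The median over all measured genes was 0.045 with the 2-unit form and 0.04 without it. Whether the element plays a part in the values of the members was not tested. A match describes these letters and is no evidence of binding, and the windows cover only 300 bases.

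**Figure D3:**
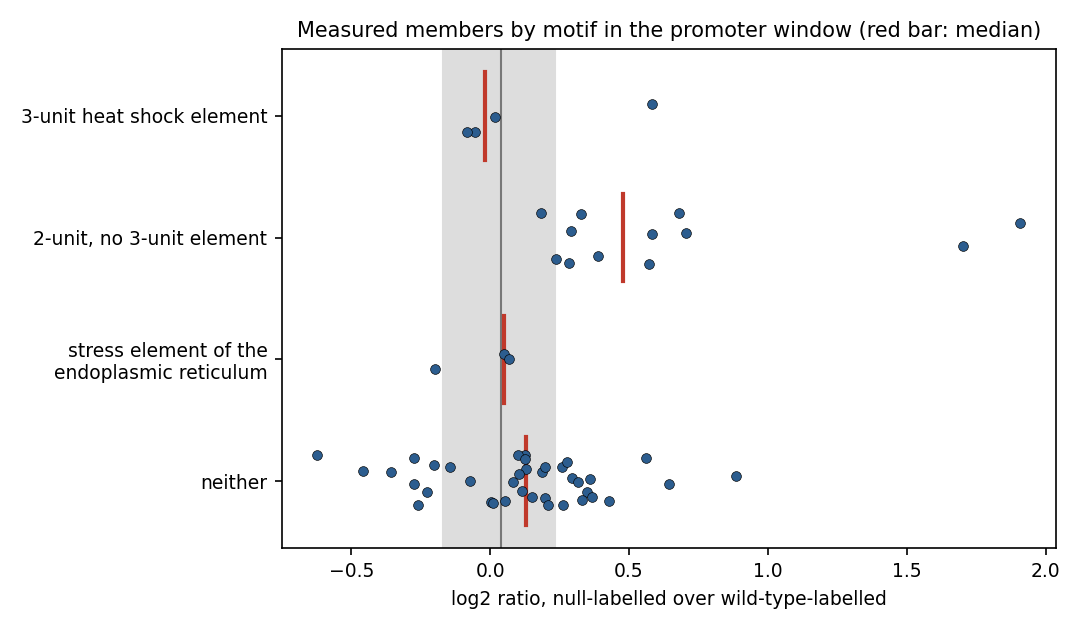
Log2 ratio of measured members, grouped by the motif found in the 300 base promoter window, with red bars for medians and the 25th to 75th percentile of all measured genes in grey. The 12 measured members with only the 2-unit form all lie above 0 with a median of 0.48, whereas 3 of the 4 with the 3-unit form lie near 0. Hspa1a and Hspa1b, with near-identical windows, are both among the 12. Hspd1 and Hspe1, with overlapping windows, are both among the 3.

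The list of 14 heat-inducible members holds Hspa1a, Hspa1b, Hspa8, Hsph1, Hsp90aa1, Hspb1, Hspb8, Cryab, Dnaja1, Dnajb1, Dnajb4, Bag3, Hspd1 and Hspe1. It thus includes Hspa8, described above as constitutive, and the mitochondrial Hspd1 and Hspe1. All 14 were measured, 13 were above 0, or 12 under the scalings that turned Hspe1, and the median was 0.39. At least 1.5-fold higher were 3 (21.4%), against 3.35% of all measured genes. Without Hspa1a and Hspa1b the count was 1 of 12 (8.33%) and the median 0.39, against a median of 0.13 over the 56 measured members outside the list. The list was drawn up with earlier results of these data known, so this contrast is a description and no independent support. Hsf2, a heat shock factor of development that modulates Hsf1, read 330.3 against 411, at 0.32 from 1 probe set. Its other probe set, under the floor on both arrays, read 99.3 against 89.5, and with no floor the value of Hsf2 was 0.08. In the list of other factors Hsf4 and the Hsf1 inhibitor Hsbp1 both had 0.25.

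The Bag proteins, several of which release nucleotide from Hsp70, went in different directions. Bag2 read 757 against 1181 and was 1.56-fold higher, at 0.64 from 1 probe set. Bag1, which links Hsp70 to the proteasome, read 6226 against 5145, at -0.28. Bag4, a silencer of death receptors, read 389 against 334 and 323 against 199.9, at -0.45 ± 0.33 (SD of 2 probe sets). Bag5 had 0.13. Bag6, a quality control factor for tail-anchored proteins, read 1903 against 1906, at 0.00, and turned below 0 under loess and with the median of all genes set to 0.

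**Figure D4:**
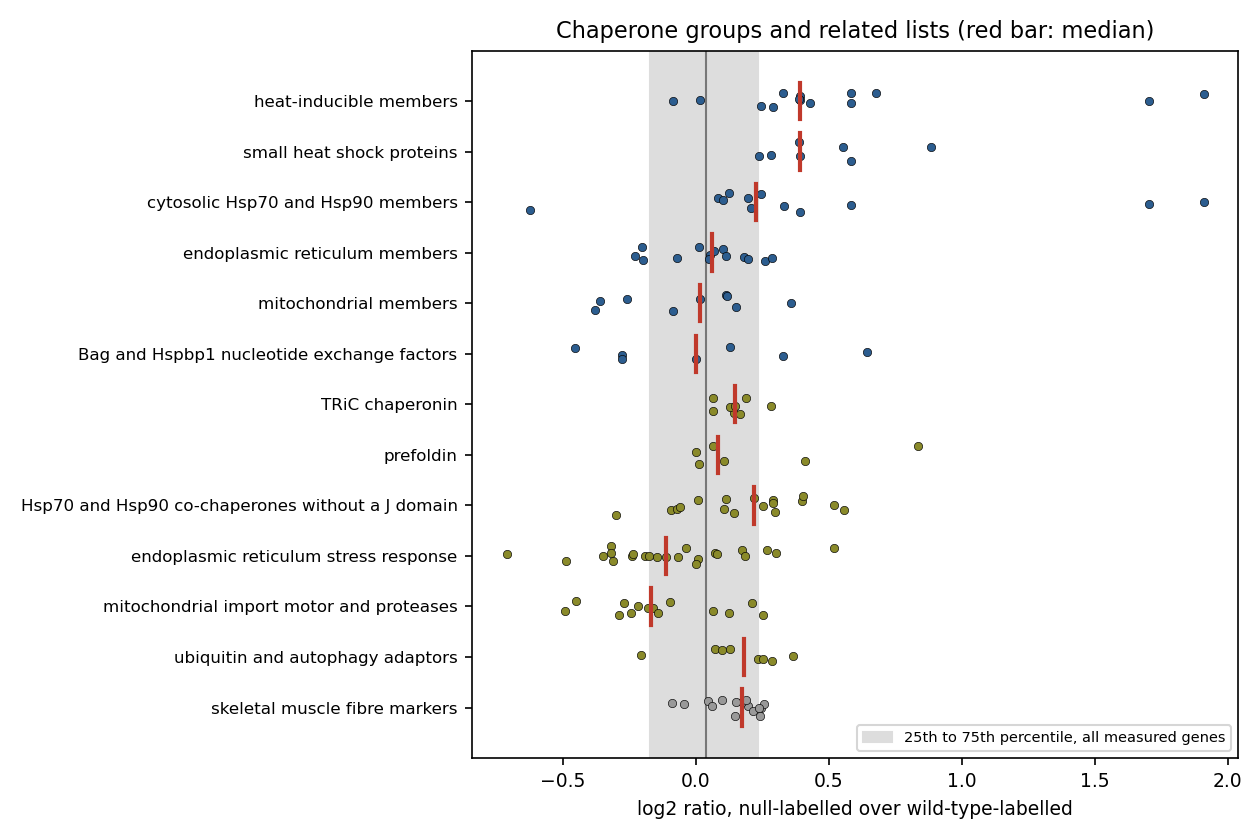
Log2 ratio of each measured gene in 6 member groups (blue), 6 related lists (olive) and the fibre markers (grey), with red bars for medians and the 25th to 75th percentile of all measured genes shaded. Medians run from 0.39 in the heat-inducible and small heat shock groups to -0.17 in the mitochondrial import and protease list.

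Other groups of cytosolic protein folding had medians between 0.09 and 0.22, the range in which the fibre markers also lay at 0.18. All 8 subunits of the chaperonin TRiC, which folds actin and tubulin, were above 0 with a median of 0.15, though after loess the count was 6 and the median 0.06. Co-chaperones without a J domain had a median of 0.22 over 17 genes, with 13 above 0, or 12 after loess. Among them 0 were past 1.5-fold, where 3.35% of all measured genes were higher and 6.27% lower. The highest were Smyd1, a methyltransferase that acts with the myosin chaperones, at 0.56, and Fkbp5, an Hsp90 partner of the glucocorticoid receptor, at 0.52. Sugt1 and Fkbp4 had 0.40 each, and Stip1, which hands clients from Hsp70 to Hsp90, had 0.25. Over 6 prefoldin subunits, which deliver actin to TRiC, the median was 0.09, or -0.0018 after loess. Among them Vbp1, with 1 probe set, read 3298 against 5891 and was past 1.5-fold at 0.84. It was 1 of 6 (16.7%), against 3.35% of all measured genes that were higher. Ubiquitin and autophagy adaptors had a median of 0.18 over 8 genes, with 7 above 0, or 5 after loess, and filamin Flnc had 0.24. Cirbp, an RNA-binding protein induced by cold, had 0.26.

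The stress response of the endoplasmic reticulum and the mitochondrial import and protease list both had medians below 0. In the former 14 of 23 measured genes were below 0 and the median was -0.11. That median was 0.07 with no floor, with 13 of 25 above 0. It was -0.02 without probe sets that can match several transcripts, with 11 of 23 above 0. Past 1.5-fold was 1 gene (4.35%), the mannosidase-like Edem1, lower at -0.71, against 6.27% of all measured genes. A second Edem1 probe set, above the floor in wild-type-labelled RNA only, read 542 against 109. Ddit3, or CHOP, had 0.52 from 364 against 522, Derl3 and Derl1 of the degradation channel had -0.49 and -0.35, and Xbp1 and Atf4 had -0.06 and 0.01. Of 14 measured mitochondrial genes 10 were below 0 and the median was -0.17. Past 1.5-fold there were 0, where 3.35% of all measured genes were higher and 6.27% lower. The proteases Clpp and Lonp1 were lowest at -0.49 and -0.45, followed by Afg3l2 at -0.29 and Spg7 at -0.27. Immediate early genes, which respond to handling and acute stress, had a median of -0.06 over 18 genes, with 8 above 0. The lowest was Maff at -0.91 and the highest Klf10 at 0.40, with Fos at 0.31. Maff was the 1 gene (5.56%) at least 1.5-fold lower, against 6.27% of all measured genes.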

How the data were processed

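RNA was measured on 2 arrays, 1 per genotype. The deposited values are linear signal intensities, 1 for each probe set, made with MAS5 per the submitters' processing notes, which give no version. The authors had scaled both arrays to a 2% trimmed mean of 500.0 before deposit, as the file's values show, and they were used unchanged. Groups come from the source labels, and 0 columns of other samples were present. The 64 control probe sets were left out. No detection calls were used, so a floor at the 60th percentile stood in their place. All 80 members matched RefSeq by gene identifier. The members and lists were chosen with earlier results of these data known. Both signals are given for members past 1.5-fold, for the 3 brightest measured members of each family and for others the text describes. Of related lists, up to 4 genes with the largest absolute log2 ratio were named, and Stip1, Flnc, Cirbp, Xbp1, Atf4, Hsf4, Hsbp1 and Fos were named after their values were seen. The motif search was written after the values were known, too. No test was run, since 1 array per genotype leaves no residual degrees of freedom. Gene values were computed with pandas 2.3.3 and numpy 2.4.6, loess with statsmodels 0.14.6 at a span of 0.3, after the scripts had recovered known changes in simulated data. The simulation gave each probe set independent noise and checked calls only at changes larger than 1.5-fold. It tested the code and bears on no call made here. Alternatives changed the scaling, the floor, the summary over probe sets, the probe sets kept and a pseudocount of 50.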

Additional observations from a re-analysis of the deposited data

How the results depend on the processing

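Over 11 alternatives the count of members at least 1.5-fold higher stayed between 4 and 9, and Hspa1a, Hspa1b and Bag2 were counted under every one. It was 4 with the brightest probe set of each gene, which left out Hspb7 and Dnaja4, and 9 with no floor, which added dim genes such as Hspb9. The count at least 1.5-fold lower was 0 with the floor at the 75th percentile, 0 with 50 added to each signal and 3 with no floor, which were the dim Dnajb3, Dnajb7 and Dnajc22 and no longer Hspa14. The median log2 ratio of members was 0.14 with the median of all genes set to 0 and 0.12 after loess, and it lay above the median of all genes by 0.11 to 0.17 under every alternative. None of the 7 called members changed sign under an alternative that measured it. Outside the members, Vbp1 of the prefoldin list and Edem1 of the endoplasmic reticulum list also kept their sign, Edem1 without a value at the 75th percentile floor. Depth of an array has no count, so signal over the floor limits what can be read: 55 member probe sets lay under it on both arrays. No paired analysis was possible because each genotype has 1 array and the result comes from no test.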
